A study of Mus musculus with 9 samples.

Results

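The genes described here are Trp53, which encodes the transcription factor p53, and 9 genes that p53 is known to switch on: Mdm2, Cdkn1a, Ccng1, Bbc3, Pmaip1, Bax, Trp53inp1, Phlda3 and Zmat3. They were named by symbol, with earlier results of these data known. They make up 10 of the 35896 genes to which the deposited transcripts could be assigned, and all 10 were expressed highly enough to be tested.

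p53 is held at low protein levels by MDM2, a ubiquitin ligase that marks it for destruction and whose own gene p53 activates, so that the pair forms a negative feedback loop. When DNA is damaged or ribosomes are made incorrectly, p53 escapes MDM2 and drives genes that stop the cell cycle, repair DNA or trigger apoptosis. Mouse embryonic stem cells are known for holding abundant p53, for a short G1 phase and for a low threshold to apoptosis. RNA was measured here, and neither the amount nor the activity of the p53 protein can be read from it.

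The study concerns the Arp2/3 complex, the nucleator of branched actin, in cells that exit self-renewal. All cells were E14 embryonic stem cells on gelatin in medium with serum, so every value comes from a single cell line. Poly-A RNA was sequenced in 3 groups of 3 replicates. Control cells with LIF2i were kept in the cytokine LIF with 1 µM PD0325901, a MEK inhibitor, and 1 µM CHIR99021, a GSK3β inhibitor. Withdrawn cells are controls cultured for 72 h after all 3 agents had been removed. CK666 cells were withdrawn for the same 72 h in 80 µM CK666, a small-molecule Arp2/3 inhibitor given from a DMSO stock. The labels call the controls untreated, so the drug and its solvent cannot be told apart. The labels name no DNA-damaging agent and no change to the Trp53 gene in any group.

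The libraries held 16894327 to 22550952 estimated counts. Those of replicate 1 stood apart in all 3 groups: they detected 15690 to 17605 genes with any count, the libraries of replicates 2 and 3 18166 to 18749, and the second principal component (23.3% of the variance) separated them. The split ran through the p53 genes too. Replicate 1 was the lowest library of its group in all 3 groups for Bax, Phlda3, Bbc3, Pmaip1 and Mdm2, and the highest in all 3 for Trp53 and Ccng1. The study calls the replicates paired, so same-numbered libraries were compared within one fit, and the values of the 10 genes without replicate 1 are given beside those with it. The summed level of 8 pluripotent cell markers was 4381 to 4954 CPM, the counts after scaling for library size, with LIF2i, 2617 to 2939 in withdrawn cells and 2491 to 3011 with CK666. Summed levels of 8 fibroblast markers were 6.85 to 9.58, 30.4 to 34.4 and 19.3 to 28.9 CPM, with Lum and Twist2 at 0 in every library with LIF2i and Lum at 0 in every CK666 library. The sums were 11.8 to 14.7, 21.0 to 50.2 and 27.4 to 42.7 CPM for 8 extraembryonic endoderm markers, with Afp at 0 in every library with LIF2i. They were 129 to 150, 162 to 396 and 117 to 381 CPM for 8 trophoblast markers, with none at 0 throughout a group. The part of such cells in the p53 results was not tested. A sum follows its most abundant markers. At an edgeR adjusted p under 0.05, 5 of the 8 pluripotent markers fell and 2 rose after withdrawal. Of all genes tested 19.7% fell and 21.1% rose. The same counts held in CK666 cells against those with LIF2i, where 17.1% and 19.8% of all genes did.

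The genes lie on 8 chromosomes of the mouse genome (GRCm38). Trp53 spans chr11:69580359-69591873 on the plus strand, and its inhibitor Mdm2 spans chr10:117688875-117710758 on the minus strand. Among the cell-cycle genes, Cdkn1a lies at chr17:29090976-29100727 (plus) and Ccng1 at chr11:40748552-40755311 (minus). The apoptosis genes are Bbc3 at chr7:16308393-16318205 (plus), Bax at chr7:45461697-45466898 (minus) and Pmaip1 at chr18:66458533-66465565 (plus). Trp53inp1 lies at chr4:11156431-11174379 (plus), Phlda3 at chr1:135766119-135769136 (plus) and Zmat3 at chr3:32334792-32366014 (minus). All are protein-coding. Bax shares 12.2% of its exonic bases with Gm45808 on the same strand, which took 0 to 48.8 counts per library, and Cdkn1a shares 7.68% with AC167363.2, a locus of unsettled status, on the opposite strand that is not among the deposited transcripts. The processed pseudogene Trp53-ps had 0 counts in all 9 libraries.

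On the TPM scale, which corrects for transcript length and so allows genes to be compared, Bax was the most abundant of the 10 in each group. Its mean level was 338 ± 159 TPM (SD, n = 3) with LIF2i, 384 ± 99.4 in withdrawn cells and 381 ± 91.9 with CK666. Trp53 came next in each group, at 248 ± 98.1, 190 ± 55.1 and 156 ± 67.5 TPM. The order below them differed between groups. Cdkn1a ranked 3 of 10 with LIF2i, at 125 ± 31.3 TPM, and 8 of 10 in both withdrawn groups, at 69.5 ± 17.3 TPM in withdrawn cells and 48.4 ± 13.6 TPM with CK666. Phlda3 and Bbc3 ranked 7 and 8 with LIF2i, at 43.5 ± 18.7 and 34.3 ± 12.8 TPM, and 4 and 5 in withdrawn cells, at 120.3 ± 55.3 and 116 ± 24.0 TPM. Pmaip1 and Zmat3 were the 2 lowest genes in each group, at 15.7 ± 6.52 and 23.6 ± 0.343 TPM with LIF2i. With LIF2i, neighbours in this order overlapped over their libraries except Trp53 and Cdkn1a, Mdm2 and Trp53inp1, Trp53inp1 and Phlda3, and Zmat3 and Pmaip1. In withdrawn cells the exceptions were Bax and Trp53, Cdkn1a and Pmaip1, and Pmaip1 and Zmat3. With CK666 they were Bax and Trp53, and Bbc3 and Phlda3.

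Removing LIF2i for 72 h moved most of the 10 genes, and of the p53 targets called only Cdkn1a fell. Ccng1, Bbc3, Pmaip1, Trp53inp1, Phlda3 and Zmat3 rose, Trp53 itself and Cdkn1a fell, and Mdm2 and Bax did not pass the test. A gene was called at an edgeR adjusted p under 0.05 over 14648 genes, and all of the following levels are CPM after TMM scaling. The 6 of 10 that rose stand against 21.1% of all genes tested that rose. The 2 of 10 that fell are close to the 19.7% of all genes that fell, and a called gene was common in this comparison. The median log2 fold change (log2FC) of the 10 genes was 0.54, against 0.01 over all genes tested. Without replicate 1, the same fit called 6 of the 10 as raised and none as lowered. None was called as lowered either with no filter on low counts, or without replicate 2, LIF2i replicate 2, withdrawn replicate 1 or withdrawn replicate 2. In all, 5 of the 10 were called without replicate 2, 4 without replicate 3, 5 without withdrawn replicate 3, and 4 without the replicate block. Over all genes these fits called 3746, 3099, 4209 and 3509, against 5967 in the full fit, so the calls fell for all genes too. In such bulk RNA, fewer cells that express a gene and less RNA per cell cannot be told apart.

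**Figure D1:**
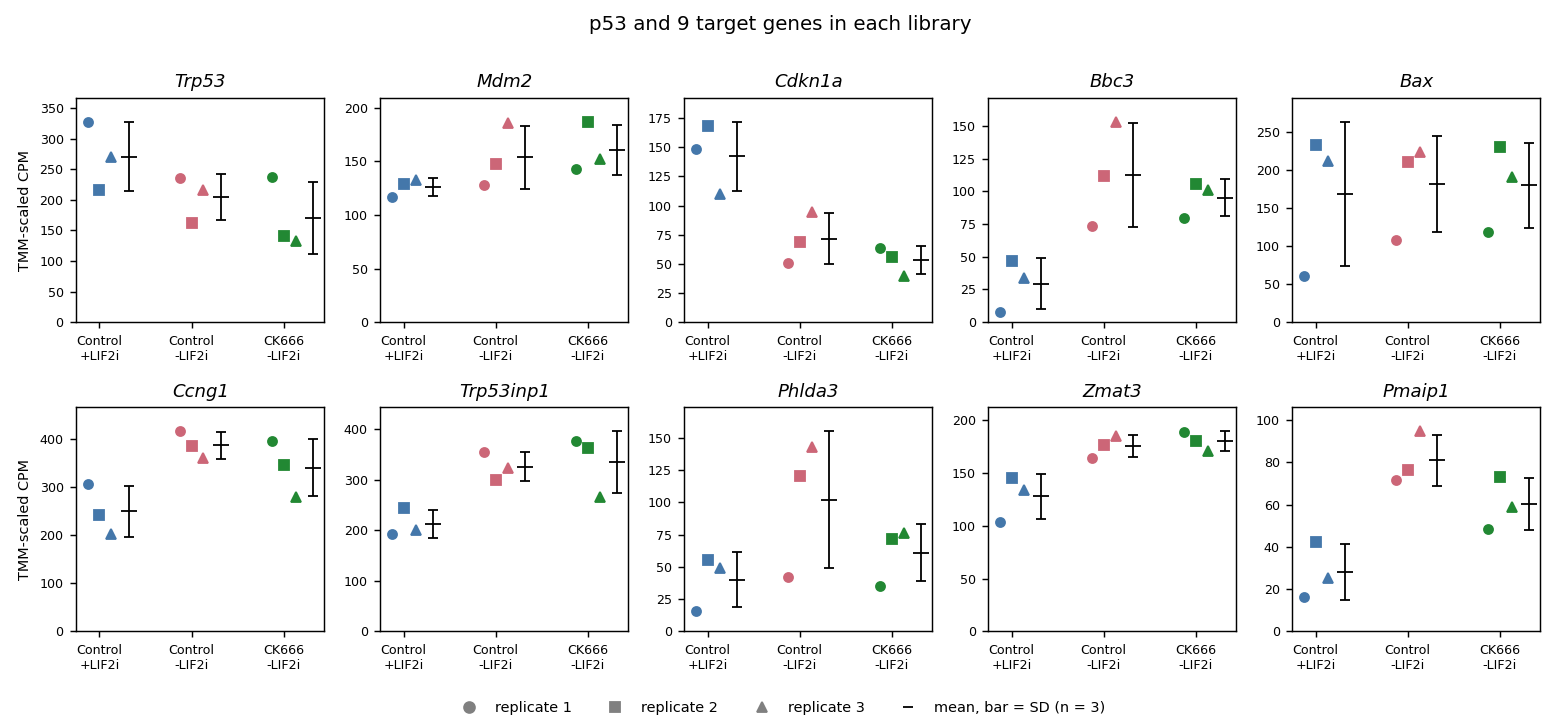
TMM-scaled CPM of each gene (vertical axis, linear and starting at 0) in each library, by group (horizontal axis), with one marker shape per replicate number and the mean ± SD of each group (n = 3). Bbc3, Pmaip1, Ccng1, Trp53inp1 and Zmat3 lie wholly higher in withdrawn cells than with LIF2i, Cdkn1a lies wholly lower, and replicate 1 (circles) is the lowest library of each group for Bax, Phlda3 and Bbc3.

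Trp53, the gene of p53 itself, was at 327, 216 and 270.0 CPM with LIF2i (replicates 1, 2 and 3) and at 236, 162 and 216 CPM in withdrawn cells. It was lower after withdrawal in each of the 3 pairs, although the groups overlap. The log2FC was -0.40 (SE 0.14, edgeR adjusted p = 0.0495), just inside the threshold. This call held in 6 of 21 alternative analyses, with values from -0.52 to -0.28 and adjusted p up to 0.334 when the replicate block was left out. Without replicate 1 the value was -0.34 (adjusted p = 0.0684), without replicate 2 -0.39 (0.212) and without replicate 3 -0.44 (0.105). Leaving out 1 library ended the call for LIF2i replicates 2 (-0.39, 0.113) and 3 (-0.33, 0.193), withdrawn replicates 1 (-0.28, 0.229), 2 (-0.37, 0.160) and 3 (-0.52, 0.0527), and CK666 replicate 2 (-0.40, 0.0761).

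Mdm2, the p53 inhibitor and feedback target, was at 117, 129 and 133 CPM with LIF2i and at 128, 147 and 186 CPM in withdrawn cells. It was higher in each pair, while the lowest withdrawn library lay just under the highest library with LIF2i. The log2FC of 0.28 (SE 0.13) did not pass the test (edgeR adjusted p = 0.124), and its 95% interval ran from -0.02 to 0.57. It was not called in any of the 21 alternatives, where its values ran from 0.13 to 0.37, the highest without replicate 1 (adjusted p = 0.0673). Between 85.2% and 92.5% of its counts in each library fell on Mdm2-201 (ENSMUST00000020408.15).

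Cdkn1a encodes p21, the inhibitor of cyclin-dependent kinases through which p53 halts the cell cycle, and it moved the other way from most of the targets. It was at 148, 168 and 110.2 CPM with LIF2i and at 50.8, 69.0 and 94.4 CPM in withdrawn cells. Every withdrawn library lay below every library with LIF2i. The log2FC was -0.98 (SE 0.26, edgeR adjusted p = 0.0166), so that the mean fell from 142 ± 29.4 to 71.4 ± 21.9 CPM (SD, n = 3). The call held in 14 of 21 alternatives, and the value stayed negative in all 21, from -1.42 to -0.65. It was lost without replicate 1 (-0.70, adjusted p = 0.0824), replicate 2 (-0.81, 0.186), LIF2i replicate 1 (-0.89, 0.106), LIF2i replicate 2 (-0.83, 0.0836), withdrawn replicate 1 (-0.65, 0.0766) and withdrawn replicate 2 (-0.86, 0.0958), and with no filter on low counts (-0.96, 0.0578).

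The 2 Cdkn1a starts with RefSeq windows lie 2790 bases apart, and the annotation holds others with few counts. The sequences just before them are shown because the estimates for their transcripts did not follow each other. Each run is the 250 bases before a start in the RefSeq annotation of GRCm38.p6, 5′ to 3′ on the plus strand, at chr17:29090729-29090978 and chr17:29093519-29093768. Capitals mark exact matches to the p53 half-site consensus, on either strand. This 10-base consensus has 3 purines, C, 2 bases that are A or T, G and 3 pyrimidines, and p53 binds a pair of such half-sites.
Cdkn1a upstream start: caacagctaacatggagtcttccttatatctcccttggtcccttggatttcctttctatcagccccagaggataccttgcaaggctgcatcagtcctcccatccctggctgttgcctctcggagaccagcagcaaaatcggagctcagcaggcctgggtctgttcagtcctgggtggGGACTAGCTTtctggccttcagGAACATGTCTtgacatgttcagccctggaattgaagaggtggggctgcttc
Cdkn1a downstream start: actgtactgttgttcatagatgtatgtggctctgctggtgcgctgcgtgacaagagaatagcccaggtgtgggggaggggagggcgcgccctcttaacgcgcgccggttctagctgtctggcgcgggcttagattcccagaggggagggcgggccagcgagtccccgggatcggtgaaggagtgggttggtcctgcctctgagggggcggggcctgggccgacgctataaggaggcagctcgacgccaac

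The upstream run holds 2 half-sites, GGACTAGCTT from 73 bases and GAACATGTCT from 51 bases before the start, with 12 bases between them. The second is followed directly by TGACATGTTC, which departs from the consensus at 1 base, so that the 20 bases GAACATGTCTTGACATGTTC read as an adjacent pair. That closer look was made after the sequence had been seen. At least 1 half-site occurs in 8.36% of the 32851 promoter windows of 300 bases in the RefSeq set, at least 2 in 0.359%, and an adjacent pair with at most 1 mismatch in 0.0883%. The downstream run holds no half-site and 2 copies of the GC box GGGCGG, which is found in 35.7% of windows on either strand. A match is a description of the letters and shows no binding in these cells.

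The transcript that begins at the upstream start, Cdkn1a-202, was estimated at 10.7, 12.7 and 13.3 TPM with LIF2i and between 9.76 and 22.6 TPM in withdrawn cells. The one from the downstream start, Cdkn1a-201, was estimated at 142, 112 and 77.6 TPM and at 44.6, 47.0 and 64.7 TPM. The downstream form thus carried the lower total after withdrawal, and its groups did not overlap. Cdkn1a-202 took 2.88%, 4.27% and 6.38% of the gene's counts with LIF2i and 7.88%, 13.1% and 12.2% in withdrawn cells, with no overlap. With CK666 it took 4.84%, 8.37% and 5.13%, between 4.08 and 8.89 TPM, below every other library. These shares are descriptions with no test, and they rest on how the authors' program divided reads between transcripts that share exons.

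**Figure D2:**
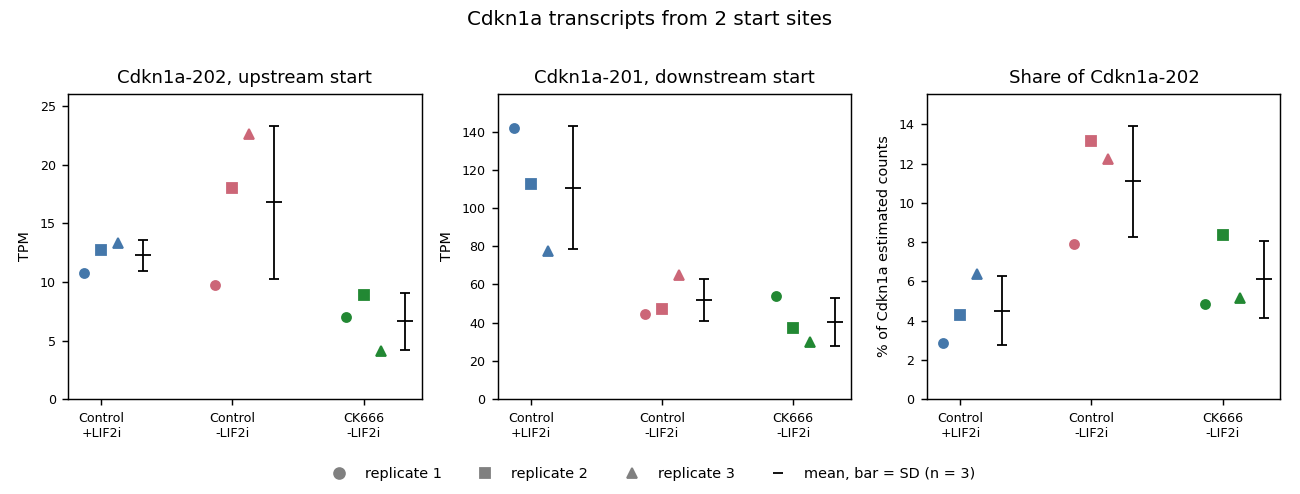
TPM of Cdkn1a-202 (left) and Cdkn1a-201 (middle), and the percent of Cdkn1a counts on Cdkn1a-202 (right), in each library by group, with mean ± SD (n = 3) and marker shapes for replicates. The downstream form lies at 77.6 to 142 TPM with LIF2i and at 44.6 to 64.7 TPM in withdrawn cells, while the upstream form is lowest with CK666, at 4.08 to 8.89 TPM.

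Ccng1 encodes cyclin G1, a p53 target that recruits a phosphatase to MDM2. It was at 306, 240.5 and 201 CPM with LIF2i and at 415, 385 and 359 CPM in withdrawn cells. All withdrawn libraries lay above all libraries with LIF2i, and the log2FC was 0.65 (SE 0.12, edgeR adjusted p = 0.00200). Replicate 1 was the highest library of each group, and without it the value was 0.78 (adjusted p = 0.000315). The call was lost without replicate 3 (0.56, adjusted p = 0.0574) and without the replicate block (0.63, adjusted p = 0.0607). All of its counts, 100% in each library, were assigned to Ccng1-201.

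The genes with the largest increases were Bbc3 and Pmaip1, which encode PUMA and NOXA, the BH3-only proteins through which p53 sets off mitochondrial apoptosis. Bbc3 was at 7.81, 46.6 and 33.9 CPM with LIF2i and at 73.4, 112 and 153 CPM in withdrawn cells. The groups did not overlap, and LIF2i replicate 1, with 159 estimated counts, was the lowest library of all. This gave a log2FC of 2.10 (SE 0.38, edgeR adjusted p = 0.00274), and it was 1.74 without replicate 1 (adjusted p = 0.000336). Pmaip1 was at 16.3, 42.3 and 25.3 CPM with LIF2i and at 71.8, 76.5 and 94.6 CPM in withdrawn cells, again without overlap. This gave a log2FC of 1.62 (SE 0.22, edgeR adjusted p = 0.000451), and 1.40 without replicate 1 (adjusted p = 0.00282). Both genes were called in all 21 alternatives. Most Bbc3 counts, 79.3% to 97.9% in each library, were assigned to Bbc3-201, and most Pmaip1 counts, 93.4% to 100%, to Pmaip1-201.

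Bax encodes the pore-forming effector that BH3-only proteins activate on mitochondria. It was at 59.9, 233 and 212 CPM with LIF2i and at 108, 210.4 and 224 CPM in withdrawn cells. Replicate 1 was far below the others in both groups, and the gene was higher after withdrawal in 2 of 3 pairs. The log2FC of 0.23 (SE 0.21) did not pass the test (edgeR adjusted p = 0.402), with a 95% interval from -0.23 to 0.70. Without replicate 1 the value was within 0.01 of 0 (adjusted p = 0.987), and it was negative in 2 of 21 alternatives.

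The remaining 3 targets rose. Trp53inp1 encodes a stress protein that acts on p53 and in autophagy. It was at 193, 244 and 199.9 CPM with LIF2i and at 356, 300.1 and 323 CPM in withdrawn cells, without overlap. This gave a log2FC of 0.62 (SE 0.15, edgeR adjusted p = 0.00856) and 0.53 without replicate 1 (adjusted p = 0.0133), and the call was lost without replicate 3 (0.59, 0.0743) and without withdrawn replicate 3 (0.53, 0.0613). Phlda3 encodes a pleckstrin-homology protein that restrains AKT. It was at 15.5, 55.7 and 49.4 CPM with LIF2i and at 42.5, 121 and 143 CPM in withdrawn cells. The ranges overlap only because withdrawn replicate 1 lay below LIF2i replicates 2 and 3, while each pair rose. The log2FC was 1.36 (SE 0.17, edgeR adjusted p = 0.000268), 1.35 without replicate 1 (adjusted p = 4.55e-05) and 1.35 without the replicate block (adjusted p = 0.106), which ended the call.

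Zmat3 encodes an RNA-binding zinc finger protein that takes part in splicing downstream of p53. It was at 104, 146 and 134 CPM with LIF2i and at 164, 177 and 185 CPM in withdrawn cells, with no overlap and small spread after withdrawal. The log2FC was 0.46 (SE 0.13, edgeR adjusted p = 0.0183), and 0.40 without replicate 1 (adjusted p = 0.0136). The call was lost without replicate 2 (0.56, 0.0514), replicate 3 (0.47, 0.125), LIF2i replicate 3 (0.51, 0.0517) or withdrawn replicate 3 (0.43, 0.0928), and without the replicate block (0.46, 0.0793). Estimates for single transcripts moved more than the gene: Zmat3-201 took 31.4%, 75.5% and 85.3% of the counts with LIF2i and 96.5% to 98.8% in withdrawn cells. With CK666 it took 98.8%, 86.5% and 51.4%, which overlaps both other groups. Zmat3-203 is of similar length (7672 against 7797 bases), and the division of reads between them is uncertain. The same holds for Trp53-201 and Trp53-203, whose annotated lengths of 1772 and 1771 bases differ by 1. Trp53-201 took 25.3% to 38.3% with LIF2i, 24.2% to 69.6% in withdrawn cells and 58.3% to 77.7% with CK666. Trp53-203 took 47.8% to 59.7%, 12.5% to 57.5% and 13.1% to 28.1%. For both, CK666 libraries did not overlap those with LIF2i, as a description with no test.

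**Figure D3:**
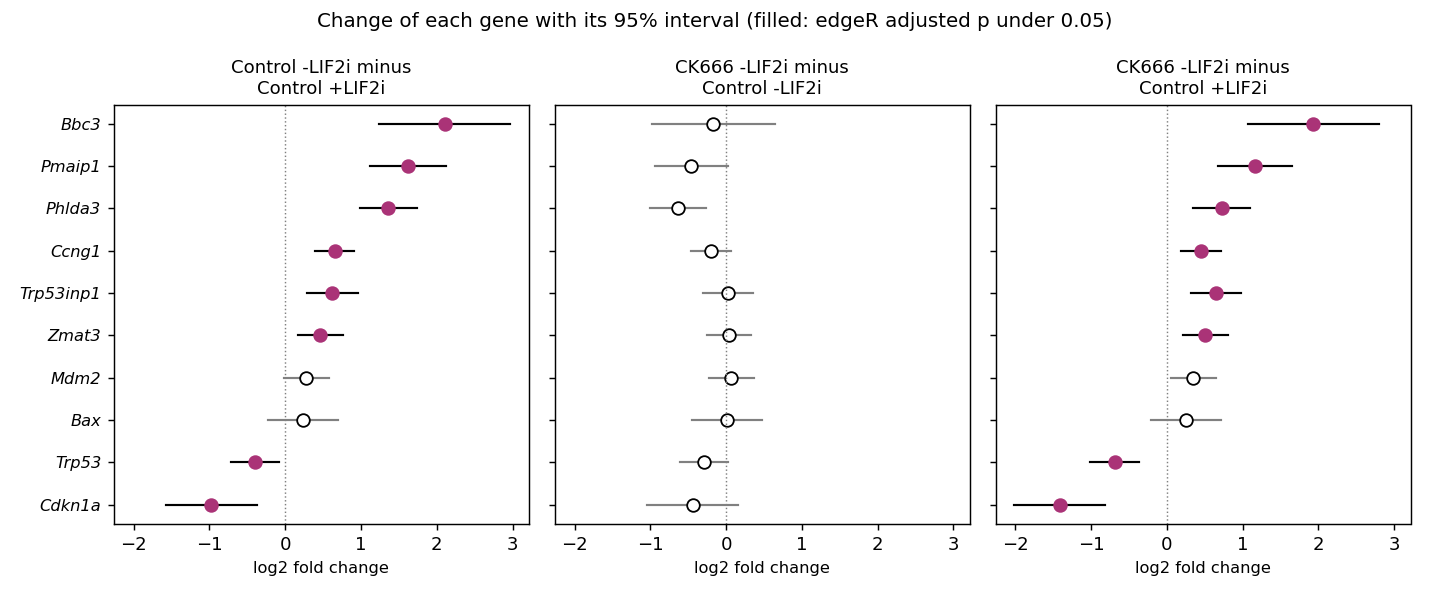
log2 fold change of each gene (horizontal axis) with its 95% interval in the 3 comparisons, from the edgeR fit over all 14648 genes, with filled points where the adjusted p is under 0.05. Bbc3 (2.10), Pmaip1 (1.62) and Phlda3 (1.36) have the largest increases after withdrawal, Trp53 (-0.40) and Cdkn1a (-0.98) lie below 0, and no point is filled for CK666 against withdrawn control cells.

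Promoter windows from RefSeq matched 7 of the 10 genes, with 10 windows, and Trp53inp1, Zmat3 and Pmaip1 are named only. Exact half-sites occurred in windows of 5 genes: Trp53 (GGACTTGCCC, from 75 bases before the start), Mdm2 (GAACTTGCCT, 186), Cdkn1a at its upstream start, Bax (AGGCAAGCTT, 201) and Ccng1 (GGGCAAGCCT, 185). None was found in the 3 windows of Bbc3 or in that of Phlda3. Thus 5 of the 10 windows held at least 1 half-site, against 8.36% of all RefSeq windows. The 5 genes moved in different ways after withdrawal: Ccng1 rose, Trp53 and Cdkn1a fell, and Mdm2 and Bax did not pass. Ccng1 and Phlda3 are shown as 2 genes that rose, one with and one without a complete match in this window. Each run is the 250 bases before the start, 5′ to 3′ on the gene's own strand in GRCm38.p6, at chr11:40755287-40755536 (minus) and chr1:135765835-135766084 (plus), with half-sites in capitals.
Ccng1: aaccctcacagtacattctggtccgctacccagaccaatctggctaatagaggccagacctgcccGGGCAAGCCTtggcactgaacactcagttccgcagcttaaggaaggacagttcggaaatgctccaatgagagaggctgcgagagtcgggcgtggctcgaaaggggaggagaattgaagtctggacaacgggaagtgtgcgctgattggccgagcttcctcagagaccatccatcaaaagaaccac
Phlda3: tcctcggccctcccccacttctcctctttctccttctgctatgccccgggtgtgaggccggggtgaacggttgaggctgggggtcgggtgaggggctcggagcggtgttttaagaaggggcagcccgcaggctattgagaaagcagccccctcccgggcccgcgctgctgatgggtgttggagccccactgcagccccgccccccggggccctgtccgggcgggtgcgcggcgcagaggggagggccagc

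The Ccng1 window of 300 bases holds no CATG, no copy of the GC box GGGCGG and no TATAAA box, all searched on both strands. The Phlda3 window holds 1 CATG, which forms the core of many half-sites, and 3 GGGCGG. That CATG is cut short by the window's end: the last 8 bases, gaacatgt, fit the first 8 of the consensus, and the next 2 bases lie outside the window, so no complete half-site could be scored there. The Bbc3 windows hold 4 to 7 GGGCGG each. Of all RefSeq windows, 61.1% hold CATG, 35.7% the GC box and 13.6% TATAAA. These windows end 50 bases after a start, and known p53 elements in introns or farther upstream lie outside them.

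CK666 during withdrawal changed none of the 10 genes past the threshold. Of all genes tested, 1.15% rose and 0.894% fell with CK666, so few calls were to be had in this comparison. At an unadjusted p under 0.05, edgeR gave 1 of the 10, Phlda3, while 2890 of all genes passed. At the adjusted threshold voom called none of the 10, and DESeq2 called 1. Without replicate 1, LIF2i replicate 1 or CK666 replicate 1, edgeR called 1, again Phlda3. Over all genes these fits called more than the 300 of the full one: 1136 with DESeq2, 1811 without replicate 1, 1657 without LIF2i replicate 1 and 406 without CK666 replicate 1. The median log2FC was -0.19 over the 10 genes and 0.02 over all genes. For each of the 6 targets raised by withdrawal, the CK666 libraries overlap those of withdrawn control cells, although Phlda3, Pmaip1 and Ccng1 were lower with CK666 in 3 of 3 pairs.

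Phlda3 came nearest to a call. It was at 42.5, 121 and 143 CPM in withdrawn cells and at 35.5, 71.7 and 76.2 CPM with CK666, lower in each of the 3 pairs. Its log2FC was -0.64 (SE 0.17, edgeR adjusted p = 0.0803), with a 95% interval from -1.01 to -0.26 before adjustment. It passed in 5 of 21 alternatives: with DESeq2 (-0.65, adjusted p = 0.0135), with no filter on low counts (-0.63, 0.0430), without replicate 1 (-0.85, 0.00436), without LIF2i replicate 1 (-0.66, 0.0170) and without CK666 replicate 1 (-0.87, 0.0319). All 21 values were negative, from -0.87 to -0.49.

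Trp53 was at 238, 141 and 133 CPM with CK666, against 236, 162 and 216 CPM in withdrawn cells, and lower in 2 of 3 pairs. Its log2FC of -0.29 (SE 0.14, edgeR adjusted p = 0.296) had a 95% interval from -0.61 to 0.03. Cdkn1a was at 63.7, 55.7 and 39.8 CPM with CK666, against 50.8, 69.0 and 94.4 CPM, and also lower in 2 of 3 pairs. The interval of its log2FC of -0.44 (SE 0.26, edgeR adjusted p = 0.400) ran from -1.04 to 0.16. For both, replicate 1 went the other way, and without it the values were -0.47 (adjusted p = 0.0534) and -0.83 (adjusted p = 0.112).

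Pmaip1 was at 48.3, 73.2 and 59.0 CPM with CK666 and lower in each pair, at a log2FC of -0.46 (SE 0.21, edgeR adjusted p = 0.271, 95% interval -0.94 to 0.02), and -0.41 without replicate 1. Ccng1 was also lower in each pair, at 395, 346 and 279 CPM, with a smaller value of -0.20 (SE 0.12, edgeR adjusted p = 0.382, interval -0.46 to 0.06), and -0.28 without replicate 1. Bbc3 was at 79.5, 105 and 101 CPM with CK666. The interval of its value of -0.17 (SE 0.35) was wide, from -0.98 to 0.64 (edgeR adjusted p = 0.838). Without replicate 1 it was -0.38 (adjusted p = 0.247), and 3 of 21 alternatives gave the opposite sign. Bax, at 119, 229.6 and 190.4 CPM with CK666, had a value of 0.02 (interval -0.44 to 0.48). Mdm2, at 143, 187 and 152 CPM, had one of 0.07 (-0.23 to 0.36). The values of Trp53inp1, at 376, 363 and 265 CPM, and Zmat3, at 189, 180.4 and 171 CPM, were 0.02 (-0.31 to 0.35) and 0.04 (-0.25 to 0.33). The values of these 4 genes without replicate 1 were -0.07 for Bax, 0.01 for Mdm2, -0.03 for Trp53inp1 and -0.06 for Zmat3, and each changed sign in some alternatives. The 95% intervals are for each gene alone, and the lack of a call does not show that CK666 left the genes as they were.

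Set against self-renewing cells, CK666 cells gave the same 8 calls among the 10 genes as withdrawn control cells, although the 2 comparisons share the libraries with LIF2i and are not independent. The genes that rose were Ccng1, Bbc3, Pmaip1, Trp53inp1, Phlda3 and Zmat3, 6 of 10 against 19.8% of all genes tested. Trp53 and Cdkn1a fell, 2 of 10 against 17.1%, and Mdm2 and Bax did not pass. The median log2FC was 0.48 over the 10 genes and 0.01 over all genes. All 8 calls remained without replicate 1, while 4 of the 10 genes were called without replicate 3 and 4 without the replicate block. Over all genes these fits called 6129, 2413 and 2966, against 5408 in the full fit.

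Cdkn1a had the larger of the 2 decreases, to a mean of 53.1 ± 12.2 CPM (SD, n = 3), with no overlap. The log2FC was -1.42 (SE 0.26, edgeR adjusted p = 0.00317), against -0.98 for withdrawn control cells, and the call was lost only without replicate 2 (-1.34, 0.0563). Trp53 had a mean of 171 ± 58.3 CPM, against 271 ± 55.8 CPM with LIF2i. The log2FC was -0.69 (SE 0.14, edgeR adjusted p = 0.00503), lower in 3 of 3 pairs with overlapping groups, and it was lost without replicate 3 (-0.53, 0.0704) and without the replicate block (-0.67, 0.119). Leaving out replicate 1 gave -1.53 for Cdkn1a (adjusted p = 0.00680) and -0.80 for Trp53 (0.00142). The difference between each pair of values is the CK666 comparison itself, which neither gene passed.

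Among the apoptosis genes, Bbc3 rose by 1.93 on the log2 scale (SE 0.38, edgeR adjusted p = 0.00480) and Pmaip1 by 1.16 (SE 0.22, adjusted p = 0.00304), both with no overlap. Without replicate 1 they rose by 1.36 (adjusted p = 0.00128) and 0.99 (0.0136), and Bbc3 missed the threshold with no filter on low counts (1.96, 0.0543). Phlda3 rose by 0.72 (SE 0.17, adjusted p = 0.00885), by 0.50 without replicate 1 (0.0142), and lost its call without replicate 3 (0.78, 0.0640) and without the replicate block (0.60, 0.495). Its value was 1.36 in withdrawn control cells.

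Trp53inp1 rose by 0.65 (SE 0.15, edgeR adjusted p = 0.00809) and was called in all 21 alternatives. Zmat3 rose by 0.51 (SE 0.13, adjusted p = 0.0140), and was lost without replicate 3 (0.59, 0.0787), CK666 replicate 1 (0.38, 0.0541) or the replicate block (0.50, 0.0672). Ccng1 rose by 0.45 (SE 0.12, adjusted p = 0.0140) with overlapping groups. It was lost without replicate 2 (0.40, 0.155), replicate 3 (0.45, 0.123), LIF2i replicate 2 (0.43, 0.0583), LIF2i replicate 3 (0.41, 0.0753), CK666 replicate 2 (0.43, 0.0684) or the replicate block (0.45, 0.181). Mdm2 had a value of 0.35 (SE 0.13, adjusted p = 0.0669) with no overlap between groups. It passed without LIF2i replicate 1 (0.40, 0.0479) or CK666 replicate 3 (0.47, 0.0449). Leaving out replicate 1 gave 0.50 for Trp53inp1 (adjusted p = 0.0180), 0.34 for Zmat3 (0.0311), 0.51 for Ccng1 (0.00438) and 0.38 for Mdm2 (0.0667). Bax had a value of 0.25 (SE 0.21, adjusted p = 0.377), but was higher in 1 of 3 pairs only and came to -0.08 without replicate 1 (adjusted p = 0.634).

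A wider list of 32 p53 targets, of which 31 were tested, also held genes called in both directions. After withdrawal 11 rose, 6 fell and 14 did not pass, with a median log2FC of 0.18, and the counts of 11 and 6 were the same without replicate 1. Without replicate 3 they were 7 and 4, and without the replicate block 7 and 5. Over all genes these fits called 3099 and 3509, against 5967 in the full fit. Of all genes tested 21.1% rose and 19.7% fell, and the 6 of 31 that fell are close to that share. Among the called genes, the largest increases were of Steap3, a ferrireductase, at 1.82 (SE 0.28, edgeR adjusted p = 0.000900), and Plk2, a polo-like kinase, at 1.46 (SE 0.24, adjusted p = 0.00138). The largest decreases were of the epoxide hydrolase Ephx1, at -1.57 (SE 0.23, adjusted p = 0.000739), and of Rrm2b, the p53-induced subunit of ribonucleotide reductase, at -1.50 (SE 0.20, adjusted p = 0.000353). With an offset for transcript length, Rrm2b came to -0.64 (adjusted p = 0.0948), and on log2(TPM + 1) to -0.54 (0.124). With CK666 during withdrawal none of the 31 passed edgeR's adjusted test, while 7 had an unadjusted p under 0.05, DESeq2 called 4 and voom none. Without replicate 1, edgeR called 4 of them, 2 in each direction. For comparison, of all 14648 genes 2890 had an unadjusted p under 0.05, DESeq2 called 1136, voom 553 and edgeR without replicate 1 1811. Against self-renewing cells 10 rose in CK666 cells and 6 fell, where 19.8% of all genes tested rose and 17.1% fell. The counts were 6 and 3 without replicate 3, and 6 and 4 without the replicate block. Over all genes these fits called 2413 and 2966, against 5408 in the full fit. Among the list genes called in the full fit were Dcxr, a carbonyl reductase, at 1.41 (SE 0.15, adjusted p = 0.000123), and Plk2 at 1.18 (SE 0.24, adjusted p = 0.00473). Tigar, a fructose bisphosphatase that slows glycolysis, was at -1.38 (SE 0.18, adjusted p = 0.000446), and Ninj1, an adhesion protein that ruptures the membrane of dying cells, at -1.24 (SE 0.21, adjusted p = 0.00186). Dcxr lost its call without the replicate block (1.43, 0.104).

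**Figure D4:**
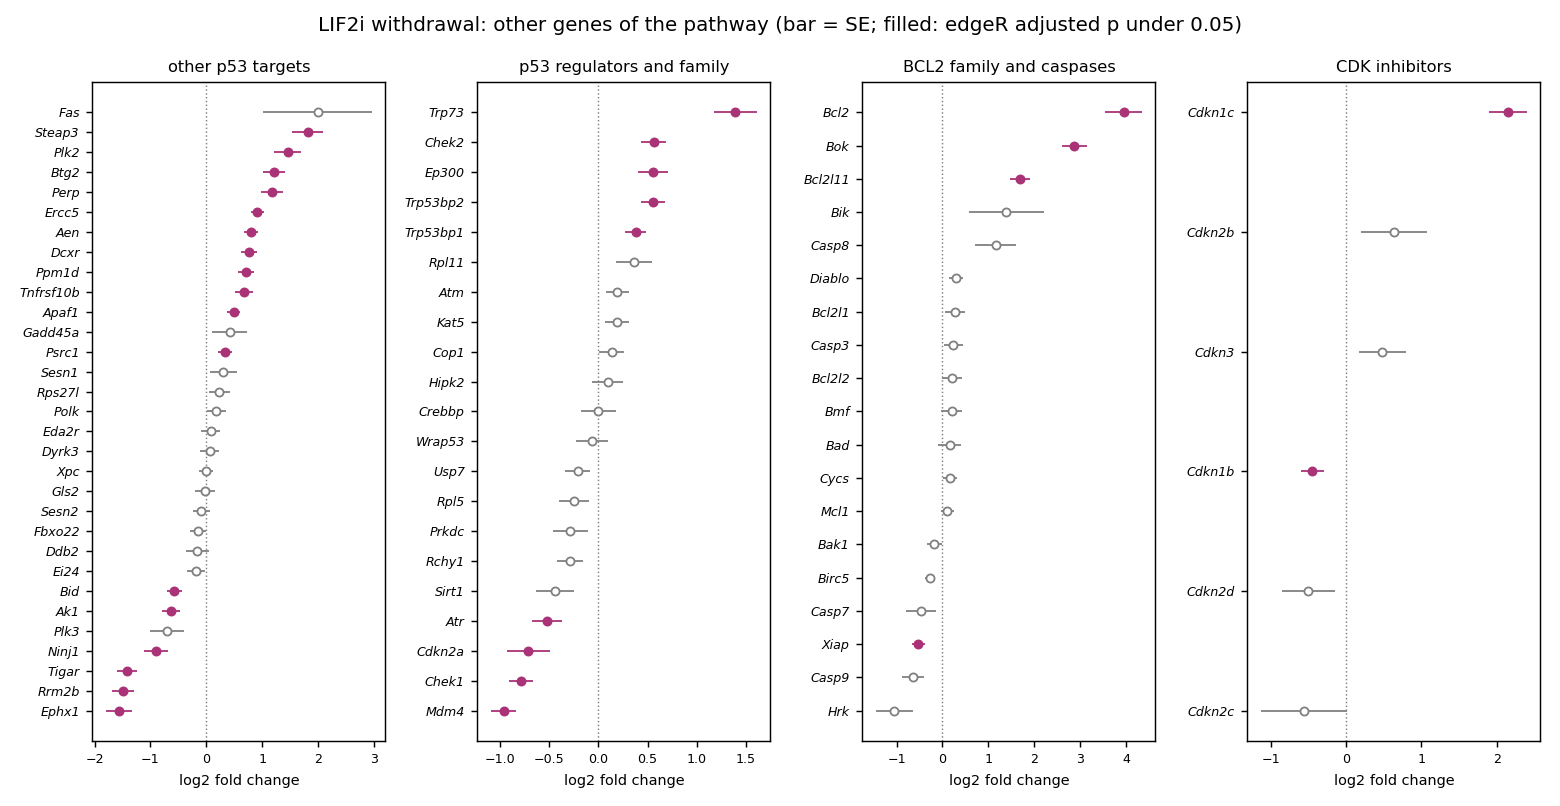
log2 fold change after LIF2i withdrawal (horizontal axis, with SE) of the tested genes of 4 lists: other p53 targets (31 genes), p53 regulators and family (21), BCL2 family and caspases (19) and CDK inhibitors (6), with filled points where the edgeR adjusted p is under 0.05. The axes differ between panels, and called genes lie on both sides of 0 in each of them.

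Of 22 genes that regulate p53 or belong to its family, 21 were tested, and 5 rose and 4 fell after withdrawal, with a median log2FC of 0.00. Both counts are close to the shares over all genes tested, 21.1% and 19.7%. Without replicate 1 the counts were 5 and 3, without replicate 2 they were 2 and 3, without replicate 3 they were 1 and 2, and without the replicate block 3 and 1. Over all genes these fits called 6588, 3746, 3099 and 3509, against 5967 in the full fit. For the regulators, leaving out 1 library gave 3 and 4 (LIF2i replicate 2), 3 and 2 (LIF2i replicate 3), 3 and 3 (withdrawn replicate 2) or 4 and 2 (withdrawn replicate 3). Over all genes 5154, 4359, 4296 and 4209 were called in these fits. Trp73, the gene of the related factor p73, rose from 5.65, 8.89 and 6.86 CPM to 20.6, 16.4 and 18.1 CPM, a log2FC of 1.39 (SE 0.22, edgeR adjusted p = 0.00107). Mdm4, the second inhibitor of p53, fell from 142, 329 and 299 CPM to 82.1, 159 and 143 CPM, at a log2FC of -0.96 (SE 0.13, adjusted p = 0.000436), and it lost its call without the replicate block (adjusted p = 0.123). It was lower in each pair, while its partner Mdm2 was not called. Chek1, a checkpoint kinase that acts upstream of p53, fell by 0.79 (SE 0.12, adjusted p = 0.000897). Cdkn2a, whose ARF product blocks MDM2, had a value of -0.71 (SE 0.22, adjusted p = 0.0277). That call was lost without replicate 2, replicate 3, LIF2i replicate 2 or 3, withdrawn replicate 2 or 3 or CK666 replicate 2 (values from -0.71 to -0.52, adjusted p 0.0502 to 0.244), without the replicate block (-0.81, 0.256) and with the length offset (-0.66, 0.0619), so that 12 of 21 alternatives called it.

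With CK666 during withdrawal none of the 21 regulators passed edgeR's adjusted test, and 4 had an unadjusted p under 0.05. DESeq2 called 3 and voom none, and edgeR without replicate 1 called 4. The 4 of 21 at an unadjusted p are close to the 2890 of 14648 among all genes, of which DESeq2 called 1136, voom 553 and edgeR without replicate 1 called 1811. Against self-renewing cells 4 rose and 5 fell in CK666 cells, near the 19.8% and 17.1% of all genes tested that did in this comparison. These counts moved with the scale and the libraries used. They were 1 and 6 on log2(TPM + 1) or log2(TPM + 0.1) and 2 and 5 with the length offset. These fits called 4259, 4380 and 4423 of all genes, against 5408 in the full fit. The regulator counts were 6 and 6 without replicate 1 and 1 and 3 without replicate 2. They were 0 and 0 without replicate 3 (6 genes at an unadjusted p under 0.05), and 1 and 1 without the replicate block. Over all genes these fits called 6129, 3336, 2413 and 2966. For the regulators, leaving out 1 library gave 1 and 6 (LIF2i replicate 2), 2 and 2 (LIF2i replicate 3), 1 and 3 (CK666 replicate 2), or 2 and 2 (CK666 replicate 3). Over all genes 4509, 3747, 3876 and 3544 were called in these fits. Trp73 was at 1.10 (SE 0.22, edgeR adjusted p = 0.00412) and Chek1 at -0.63 (SE 0.12, adjusted p = 0.00334). Wrap53, the neighbour of Trp53 on the other strand, was at -0.69 (SE 0.16, adjusted p = 0.00943), and the checkpoint kinase gene Atr at -0.57 (SE 0.15, adjusted p = 0.0181). Without replicate 3 all 4 calls were lost (adjusted p 0.0515 for Trp73, 0.0780 for Chek1, 0.103 for Wrap53 and 0.145 for Atr). Wrap53 was also lost without replicate 2 (-0.73, 0.0681) and the block (-0.69, 0.0734), and Atr without LIF2i replicate 3 (-0.44, 0.106), CK666 replicates 2 (-0.50, 0.0849) and 3 (-0.57, 0.0687) and the block (-0.56, 0.111).

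Among 19 other genes of the BCL2 family and caspases, 3 rose and 1 fell after withdrawal, with a median log2FC of 0.20. Of all genes tested 21.1% rose and 19.7% fell. The 3 include Bcl2, whose direction was fixed by the filter on low counts, so their number is not compared with that share. The counts were 5 and 3 without replicate 1, 3 and 3 with DESeq2, 3 and 0 without replicate 3, and 3 and 0 without the replicate block. Over all genes these fits called 6588, 6312, 3099 and 3509, against 5967 in the full fit. The 3 that rose with all libraries, Bcl2, Bok and Bcl2l11, belong to the BCL2 family, and Bcl2 could be counted only as raised. Bcl2, which blocks apoptosis, was at 0.442, 0.157 and 0.486 CPM with LIF2i, close to the floor of 3 counts (0.133 to 0.178 CPM), and at 4.39, 4.88 and 7.56 CPM in withdrawn cells. Its fitted log2FC was 3.95 (SE 0.40) and came to 1.00 on log2(TPM + 1), a scale that compresses low levels. It passed the filter on low counts only through the groups where it is high, so its direction was fixed by that filter and is given as a description. Bok, a relative of Bax, was at 2.88 (SE 0.26, edgeR adjusted p = 4.82e-05), and Bcl2l11, which encodes the BH3-only protein BIM, at 1.68 (SE 0.22, adjusted p = 0.000350). Xiap, a caspase inhibitor, was at -0.52 (SE 0.13, adjusted p = 0.0116), and lost its call without replicate 3 (-0.59, 0.0662), withdrawn replicate 1 (-0.41, 0.0784) or the replicate block (-0.56, 0.107).

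Of the genes tested in these 4 lists, Bok alone passed for CK666 during withdrawal, where 0.894% of all genes fell and 1.15% rose. It was at 24.8, 34.7 and 36.8 CPM in withdrawn cells and at 16.4, 11.9 and 13.0 CPM with CK666, with no overlap, against 3.19, 5.70 and 4.25 CPM with LIF2i. The log2FC was -1.19 (SE 0.24, edgeR adjusted p = 0.0450), and 9 of 21 alternatives called it. The value was -1.54 without replicate 1 (adjusted p = 0.00212). Without replicates 2 (-1.05, 0.304) or 3 (-1.03, 0.444) the call was lost. It was also lost without LIF2i replicate 3 (-1.19, 0.0756), any 1 withdrawn library (-1.37 to -1.05, 0.0672 to 0.251), CK666 replicate 2 (-0.97, 0.257) or 3 (-1.08, 0.194), the replicate block (-1.22, 0.303), with a length offset (-1.17, 0.0587) and on log2(TPM + 1) (-1.14, 0.0653) or log2(TPM + 0.1) (-1.18, 0.0702). Across this list, edgeR without replicate 1 called 3 genes raised and 3 lowered for CK666, out of 1811 genes called in that fit. Against self-renewing cells, CK666 cells had Bok at 1.69 (SE 0.26, adjusted p = 0.000999) and Bcl2l11 at 1.29 (SE 0.22, adjusted p = 0.00180), among 4 that rose, again with Bcl2 (fitted at 4.34) on the same terms, and 3 that fell, where 19.8% and 17.1% of all genes did. The 3 that fell became 0 without replicate 3, CK666 replicate 3 or the replicate block, and 1 without replicate 2, LIF2i replicate 1, CK666 replicate 1 or CK666 replicate 2. Over all genes these fits called from 2413 (without replicate 3) to 5785 (without LIF2i replicate 1), against 5408 in the full fit. Bak1, the other pore-forming effector beside Bax, was at -0.59 (SE 0.16, adjusted p = 0.0186). It was lost without replicate 2, replicate 3, LIF2i replicate 1, CK666 replicate 2 or CK666 replicate 3 (values from -0.66 to -0.42, adjusted p 0.0554 to 0.0828) and the block (-0.61, 0.137).

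Of 6 other CDK inhibitors, 1 rose and 1 fell after withdrawal, where 21.1% and 19.7% of all genes tested did. Without replicate 1, 2 rose and 2 fell, and that fit called 6588 of all genes, against 5967 in the full fit. Cdkn1c, which encodes p57, rose from 7.91, 7.58 and 6.74 CPM to 62.6, 21.5 and 26.9 CPM. The log2FC was 2.15 (SE 0.25, edgeR adjusted p = 0.000206), opposite in sign to that of its relative Cdkn1a. In CK666 cells it was at 100.5, 42.5 and 46.8 CPM, 2.96 above self-renewing cells on the log2 scale (SE 0.26, adjusted p = 4.86e-05). It was the 1 of 6 that rose in that comparison and none fell, where 19.8% and 17.1% of all genes tested did. Without replicate 1, 3 rose and 1 fell, and that fit called 6129 of all genes, against 5408. Cdkn1b, which encodes p27, was at -0.45 (SE 0.15, adjusted p = 0.0393) after withdrawal, and 9 of 21 alternatives called it. It was lost without replicate 2 or 3, LIF2i replicate 1 or 2, any 1 withdrawn library or CK666 replicate 2 (values from -0.53 to -0.35, adjusted p 0.0567 to 0.220). It was lost also without the replicate block (-0.45, 0.150), with a length offset (-0.30, 0.197) and on log2(TPM + 1) (-0.28, 0.289). With CK666 during withdrawal none of the 6 passed edgeR's adjusted test, and 2 had an unadjusted p under 0.05. Of all 14648 genes, 300 and 2890 did. DESeq2 and voom each called 1, and edgeR without replicate 1 called 2, all raised, where over all genes these fits called 1136, 553 and 1811.

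Among 9488 genes compared by the Pearson correlation of log2 CPM over the 9 libraries, those most like Trp53 were Rrp1b (r = 0.97), Med19 (0.97) and Psmc4 (0.97), which work in ribosome assembly, in the Mediator complex and in the proteasome. For Cdkn1a they were Lman2 (0.96), Nmnat2 (0.95) and Folr1 (0.95), and for Mdm2 B4galt3 (0.90), Oser1 (0.90) and Gm3558 (0.89). The libraries share group, replicate number and depth, so these values only describe the pattern.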

How the data were processed

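The authors' tables, 1 for each of 9 libraries, list 119414 Ensembl transcripts. Per the file headers they hold estimated counts, unnormalised and fractional where reads match several transcripts, and TPM scaled to a fixed sum. The deposited effective length, another column, served only as a length offset. Per the submitters' processing notes the tools were FastQC, cutadapt 1.8.1, kallisto and sleuth, and the builds GRCh38 and mm10 are named with no role. The transcript release and strand setting are not given in the sources used here. The kit is not described as marking strand, so reads from overlapping genes on opposite strands cannot be told apart.

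Transcripts were matched by identifier to GENCODE M21 (GRCm38), which found a gene for 116640 (97.7%), and the rest held 0.895% to 1.08% of a library's counts and were not used. Counts were summed per gene and rounded, and 3 counts, the floor, were 0.133 to 0.178 CPM. The floor covers counting error only. The test was edgeR 4.0.16 under R 4.3.3 (robust quasi-likelihood, TMM, edgeR's expression filter, 14648 genes), all 9 libraries in one fit with the replicate number as a block and 4 residual degrees of freedom, with Benjamini-Hochberg adjustment over all genes. The block rests on the study's text, which calls the replicates paired: deviations from group means correlated at 0.30 to 0.65 for same-numbered libraries and -0.53 to 0.29 otherwise. Alternatives were no block, RLE factors, DESeq2 1.42.0, limma 3.58.1 (voom, and log2 TPM plus 1 or 0.1), other filters, the length offset, and each replicate number or library left out. The counts of other lists under them were added after seeing the data.

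The genes and lists were chosen with earlier results of these data known. The text names all 10 genes, of each other list the called genes of largest change (at most 4 per list and comparison), and 3 most alike genes for Trp53, Cdkn1a and Mdm2 among those whose mean log2 CPM reached 3. Markers of 2 other lists summed, with LIF2i, in withdrawn cells and with CK666, to 119 to 249.9, 174 to 226 and 85.7 to 178 CPM (neural) and to 9.23 to 17.2, 9.71 to 19.3 and 4.80 to 8.34 CPM (mesoderm and streak, lowest with CK666 without overlap). Neurog2 was at 0 throughout LIF2i and CK666, Evx1 throughout LIF2i and Mesp1 throughout withdrawn cells. Their part in the CK666 results was not tested. Of the 6 neural markers tested, 2 rose and 2 fell after withdrawal, with a median log2FC of 1.20, where 21.1% and 19.7% of all genes did. In CK666 cells against self-renewing cells 1 rose and 1 fell, with a median of 0.89, where 19.8% and 17.1% of all genes did.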

Additional observations from a re-analysis of the deposited data

How the results depend on the processing

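No called value of the 10 genes changed direction in an alternative, nor did that of any other named gene in the comparisons for which its value is given as called. Leaving out the replicate block moved the genes called from 5967 to 3509 for withdrawal, from 300 to 0 for CK666 during withdrawal (1251 at an unadjusted p under 0.05) and from 5408 to 2966 for CK666 against self-renewal. The p53 genes called moved from 8 to 4 for withdrawal, stayed at 0 for CK666 and moved from 8 to 4 for CK666 against self-renewal. For CK666 during withdrawal the genes called were 1136 with DESeq2, 553 with voom, 565 with no filter, 149 with the length offset, 42 on log2(TPM + 1) and 23 on log2(TPM + 0.1), and 33.3% of the 42 had risen against 56.3% of the 300. DESeq2 and the absence of a filter each called 1 p53 gene there. The cause of these shifts was not tested.

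Leaving out 1 replicate number or library gave 3099 to 6588 genes for withdrawal, 0 to 1811 for CK666 during withdrawal and 2413 to 6129 for CK666 against self-renewal, each lowest without replicate 3 and highest without replicate 1. The p53 genes called ranged from 4 to 8, from 0 to 1 and from 4 to 9, and were lowest without replicate 3 for both comparisons with self-renewing cells. With 3 libraries a group, intervals such as that of Bbc3 under CK666 are wide.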
